A study of Mus musculus with 2 samples.

Results

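Immediate early response genes are transcribed within minutes of a stimulus, without new protein synthesis. The 32 genes described here were taken by symbol from the gene list of the deposited matrices, which holds 53717 features, and all 32 were found. They comprise subunits and partners of the AP-1 transcription factor (Fos, Fosb, Fosl2, Jun, Junb, Jund, Atf3, Maff), zinc-finger factors (Egr1, Egr2, Egr3, Klf2, Klf4, Klf6), orphan nuclear receptors (Nr4a1, Nr4a2, Nr4a3), inhibitors that end the response or degrade RNA (Dusp1, Dusp6, Zfp36, Btg1, Btg2), stress and growth response genes (Ier2, Ier3, Ier5, Gadd45b, Rhob), Myc, Cebpb and Cebpd, and the neuronal genes Arc and Npas4. In neurons such genes follow synaptic activity through calcium and MAP kinase signals acting on CREB and SRF. In any cell, and in microglia and vascular cells above all, enzymatic dissociation of tissue can switch on many of the same genes while the cells are being prepared, so a level measured in dissociated cells holds both kinds of transcription.

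Fresh hippocampus of 5xFAD mice, which carry human transgenes that lead to amyloid plaques, was dissociated with papain. Both groups carried these transgenes and were given AAV9, with expression driven by the GFAP promoter, used to target astrocytes. The NeuroD1 group received AAV9-GFAP::NeuroD1-P2A-GFP, which encodes a proneural transcription factor and GFP, and the GFP group received AAV9-GFAP::GFP. The labels give a time of 6 months for both groups, the design text speaks of 3 mice per group, with tissue taken 3 weeks after injection, and each group is 1 library, with no statement of how the mice were combined.

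UMIs (unique molecular identifiers, each counting 1 captured RNA molecule) numbered 51236521 over 13402 barcodes in the NeuroD1 library and 17504950 over 11739 barcodes in the GFP one. After filters 12784 and 11082 cells were kept, with medians of 2554 and 1169 UMIs per cell. The libraries shared 99 barcodes, 91 of them among kept cells. Levels are given as CPM, the UMIs of a gene scaled to 1000000 UMIs of its class. Ttr, made by choroid plexus, took 13% and 2.24% of the UMIs, and the libraries differed in sex-linked RNA, with Xist at 0.0413 and 103 CPM and Ddx3y at 69.5 and 0.0618. Cells fell into 28 clusters, of which 24 were named as 14 classes by their marker genes, and 8 classes had at least 100 cells in each library. Where 2 values stand side by side without a label, the NeuroD1 library comes first and the GFP library second. With 1 library per group no test between groups is possible. Every interval below is a 95% interval that covers counting error only, and a gene is called higher or lower where its level differed at least 1.5-fold between the libraries.

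The regulatory sequence next to several of these genes shows the elements through which activity signals are known to act. In the RefSeq promoter table of build GRCm38.p6, 26 of the 32 genes have an entry, and the 250 bases before each start were searched on both strands. The full CRE, the CREB element TGACGTCA, was found for 3 of the 26 genes (Btg2, Dusp1 and Maff, 11.5%) and for 1.77% of all genes in the table. The CRE half-site TGACG, which also lies inside every full CRE, was found for 16 of the 26 genes (61.5%) and for 19.8% of all genes. The CArG box bound by SRF was found for Egr2 and Zfp36 (7.69%, against 1.62% of all genes). The AP-1 site, TGAGTCA or TGACTCA, was found for none of the 26 and for 5.16% of all genes. A match describes letters in this window and shows no binding. The windows below, on the strand of each gene and ending before its start, are shown because their genes recur in the comparisons. Capitals mark the full CRE for Dusp1 and Btg2, the CArG box for Egr2, and the half-site for Fos and Nr4a1, where CGTCA is the half-site read on the other strand.
Dusp1: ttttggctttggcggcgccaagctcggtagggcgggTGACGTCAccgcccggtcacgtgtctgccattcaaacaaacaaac
Btg2: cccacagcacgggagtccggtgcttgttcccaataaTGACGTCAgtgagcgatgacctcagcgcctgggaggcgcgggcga
Egr2: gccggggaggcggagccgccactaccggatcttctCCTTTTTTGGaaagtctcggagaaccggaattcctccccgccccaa
Fos: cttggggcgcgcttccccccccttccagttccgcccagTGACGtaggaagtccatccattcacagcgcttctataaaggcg
Nr4a1: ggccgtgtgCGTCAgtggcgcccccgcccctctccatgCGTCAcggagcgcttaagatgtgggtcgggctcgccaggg
These lie at chr17:26508571-26508651 on the minus strand for Dusp1, chr1:134079277-134079357 on the minus strand for Btg2, chr10:67537459-67537539 on the plus strand for Egr2, chr12:85473786-85473866 on the plus strand for Fos, and chr15:101266768-101266845 on the plus strand for Nr4a1. In GENCODE M21 the Btg2 and Fos windows lie outside annotated genes, and those of Dusp1, Egr2 and Nr4a1 lie in introns of longer transcripts of the same gene. The first base of the element stands 143 bases before the start of Dusp1, 166 before Btg2, 72 before Egr2 and 66 before Fos.

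Among the 8 classes with at least 100 cells in each library, immune and vascular cells were the richest in immediate early RNA. Summed over the 32 genes, microglia-like cells had 36791 CPM (interval 36554 to 37028) and 18090 (17978 to 18203). Smooth muscle cell-like cells had 32501 and 30251, border macrophage- or monocyte-like cells 29262 and 21341, and endothelial cell-like cells 23021 and 24746. Pericyte-like cells had 11285 and 12002. Oligodendrocyte-like cells had 4586 and 3898, choroid plexus epithelium-like cells 1163 and 2720.4, and astrocyte-like cells, the cells the vector was aimed at, 1149.5 and 1911. With every cell thinned to 500 UMIs, the median microglia-like cell had 16 and 8 UMIs of these genes, while 57.0% and 40.6% of astrocyte-like cells had 0.

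**Figure D1:**
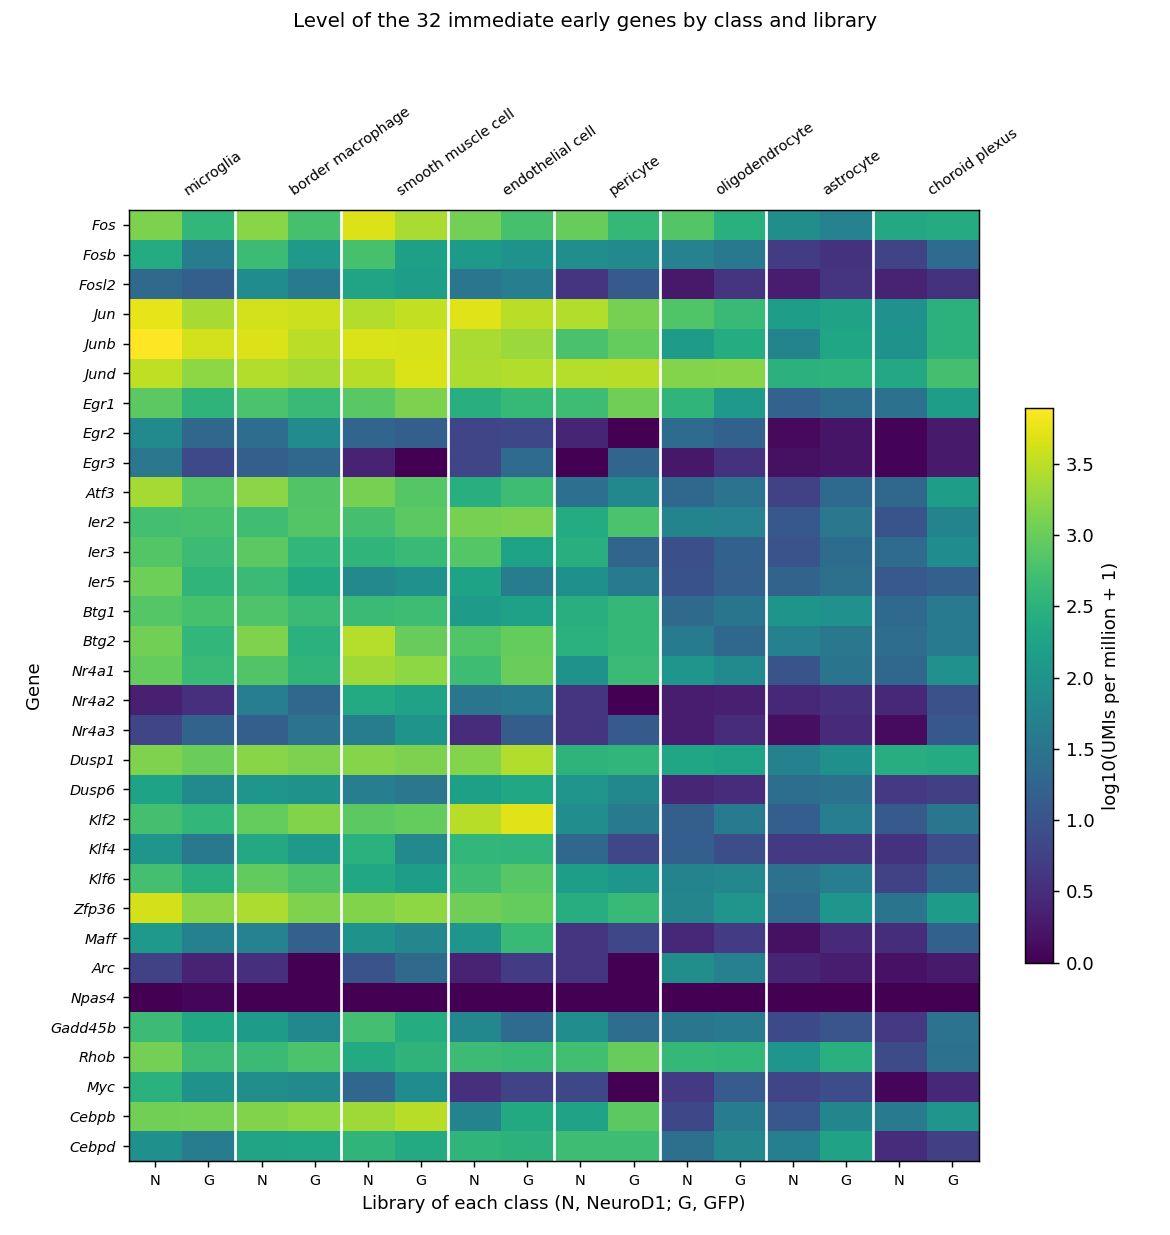
Level of each of the 32 genes (rows) in the 8 classes with at least 100 cells per library, NeuroD1 (N) and GFP (G) side by side, as log10 of CPM plus 1 (colour). Arc is brightest in oligodendrocyte-like cells, Klf2 in endothelial cell-like cells, and Npas4 is at or near 0 throughout.

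In what follows, highest means highest among these 8 classes, and the smaller classes come after. The order was gene-specific, and 18 of the 32 genes had the same highest class in both libraries. Among the AP-1 genes, Fos was highest in smooth muscle cell-like cells (4747 and 2465 CPM), with border macrophages at 1580 in the first library and endothelial cells at 573 in the second. Fosb and Fosl2, which replace Fos as partners of the Jun proteins, were also highest there, Fosb at 562 and 163 and Fosl2 at 185 and 146. Atf3, a stress-induced partner that often represses, was highest in microglia-like cells (2310 and 745). Jun, Junb and Jund were highest in microglia in the NeuroD1 library, at 5556, 7745 and 3247. In the GFP library Jun was highest in border macrophages (3898), and Junb (4502) and Jund (4631) in smooth muscle. Maff, a small Maf protein, was highest in microglia (124) in the first library and in endothelial cells (437) in the second.

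All 3 nuclear receptors had their highest level in smooth muscle cell-like cells in both libraries: Nr4a1 at 2150 and 1669, Nr4a2 at 236 and 174, and Nr4a3 at 42.5 and 101 CPM. Klf2, which responds to blood flow, and Klf4 were highest in endothelial cell-like cells, Klf2 at 3003 and 5170 and Klf4 at 369 and 361. Klf6 was highest in border macrophages (899) in the first library and in endothelial cells (751) in the second. Egr1 was highest in microglia (801) in the NeuroD1 library, with smooth muscle at 788, and in smooth muscle (1321) in the GFP library. Egr2 was highest in microglia (72.4) and in border macrophages (73.9), and Egr3 in microglia (33.6) and in endothelial cells (22.0), in the NeuroD1 and GFP libraries in turn.

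Among the genes that damp the response, Dusp1, a phosphatase that switches off MAP kinases, was highest in border macrophages (1559) in the first library and in endothelial cells (2743) in the second. Dusp6, which acts on ERK, was highest in microglia (178) and endothelial cells (204), in the same order. Zfp36, which marks AU-rich RNAs for decay, was highest in microglia (4292) and in smooth muscle (1683). Btg2 was highest in smooth muscle in both (2847 and 963), and its relative Btg1 in microglia in both (736 and 576). Ier2 was highest in endothelial cells (1240 and 1335), Ier5 in microglia (1056 and 345), and Ier3 in border macrophages (824) and microglia (462). Gadd45b, a stress gene, and Cebpb, a factor of inflammatory gene programs, were highest in smooth muscle, at 532 and 257 and at 2187 and 2951. Cebpd was highest in pericytes (486 and 475), Myc in microglia (303 and 98), and Rhob, a small GTPase, in microglia (1193) in the first library and pericytes (956) in the second.

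Some genes stood higher still in classes with fewer cells. T or NK lymphocyte-like cells (59 and 126 cells) had Btg1 at 1738 CPM (1500 to 2003) and 2165 (1921 to 2431), well above its level in any of the 8. They also had Junb at 5348, Klf6 at 813 and Myc at 122 in the GFP library, and Nr4a2 at 300.3 and Nr4a3 at 137 in the other. Fibroblast-like cells (119 and 28) had Cebpd at 717 and 844 and Gadd45b at 665 and 411, with Egr1 at 1020 in the first library and Fosb at 228, on 10 UMIs, in the second. Fos was at 3285 and 1300 in them and at 3788 in the ependymal cell-like cells of the NeuroD1 library, below smooth muscle but above the rest of the 8. Egr1 was at 939.9 in those ependymal cells, and Nr4a3 at 151 on 2 UMIs in the 7 of the GFP library. Egr3 was at 38.5 and 55.6 in neuron-like cells, on 2 and 11 UMIs, and at 45.6 on 2 UMIs in fibroblasts of the GFP library.

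Microglia-like cells held more RNA of nearly every immediate early gene in the NeuroD1 library. Of 30 genes with at least 20 UMIs in both libraries together, 24 were higher and 1 was lower. Over all 11645 genes counted in this class 36.7% were higher and 16.1% lower, so the whole class leaned the same way, with a median log2 ratio of 0.35 against 1.24 for the 30. The intervals of all 24 lay above 1. Fos was at 1322 CPM and 369, 3.58-fold (3.39 to 3.78). Fosb was at 243 and 43.6, 5.57-fold (4.80 to 6.5), and Atf3 at 2310 and 745, 3.10-fold (2.98 to 3.23). All 8 AP-1 genes were higher, down to Junb at 1.83-fold (1.79 to 1.86) and Fosl2 at 1.51-fold (1.04 to 2.16).

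The 3 Egr genes were higher together: Egr3 at 33.6 and 6.33, 5.31-fold (3.55 to 8.12), Egr2 at 72.4 and 19.4, 3.74-fold (2.93 to 4.80), and Egr1 at 801 and 338, 2.37-fold (2.22 to 2.52). Btg2 was 3.10-fold higher (2.93 to 3.28), Zfp36 2.65-fold (2.58 to 2.72), Dusp6 2.60-fold (2.27 to 2.99) and Rhob 2.59-fold (2.45 to 2.73). Myc was at 303 and 98, 3.09-fold (2.76 to 3.45), Ier5 at 1056 and 345, 3.06-fold (2.88 to 3.24), and Klf4 at 107 and 34.7, 3.08-fold (2.55 to 3.72). The genes within 1.5-fold were Ier2 (539.9 and 578), Cebpb (1132 and 1189), Btg1 (736 and 576), Dusp1 (1358 and 1041) and Klf2 (547 and 381). Nr4a3, at 14 and 92 UMIs, was the gene called lower, at 0.333 times the GFP level (0.175 to 0.587). The genes thus did not differ by a common factor, with Ier2 and Cebpb nearly level and Fosb 5.57-fold apart.

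**Figure D2:**
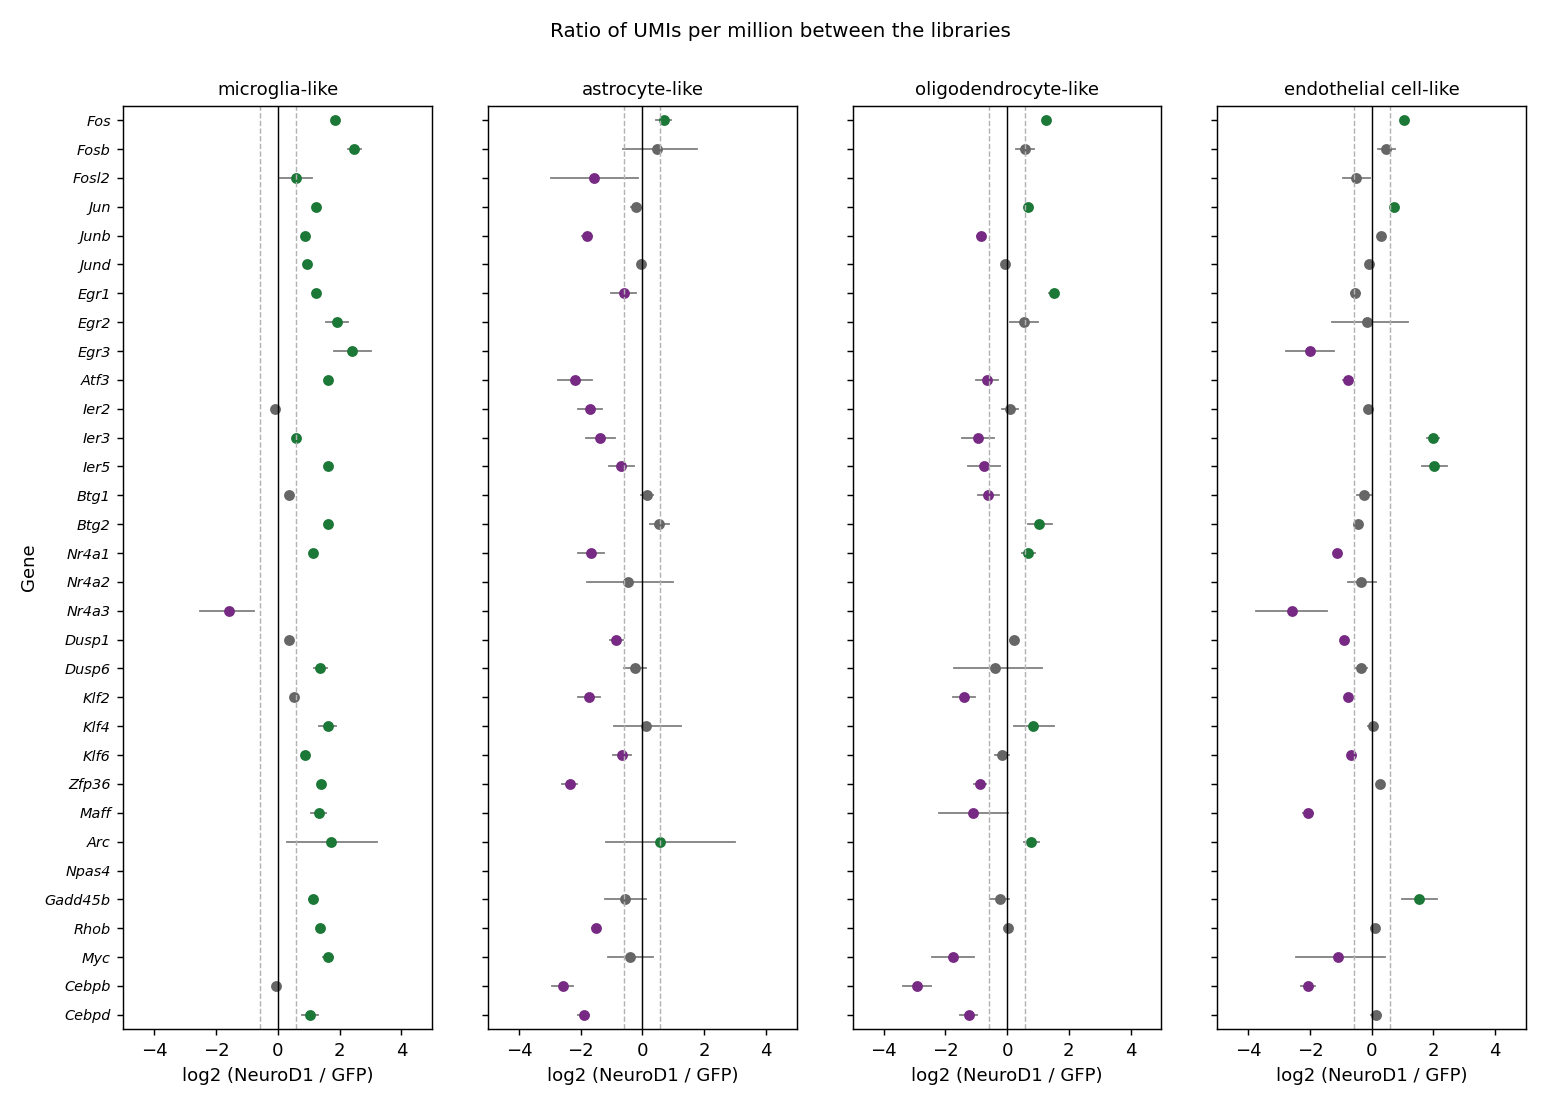
Log2 ratio of CPM, NeuroD1 over GFP library, for each gene with at least 20 UMIs in both libraries together, in 4 classes. Points are ratios, bars 95% intervals for counting error, dashed lines the 1.5-fold limits; green is higher, purple lower. In microglia-like cells 24 points lie past the upper limit, and in astrocyte-like cells 15 lie past the lower one.

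The makeup of the microglial class differed between the libraries, and the ratios changed with it. In the NeuroD1 library 1095 of 1225 microglia-like cells lay in cluster 9, led by the homeostatic genes Tmem119 and Cx3cr1. In the GFP library 2536 of 3643 lay in cluster 26, led by Cst7, Lpl and Clec7a, genes known from microglia around amyloid plaques, where the 32 genes summed to 17064 CPM. Cluster 18, with 102 and 666 cells and medians of 874 and 814 UMIs, was the best shared. There the sums were 26534 and 23539, and of 26 genes counted 6 were higher and 5 lower, beside 21.4% and 26.9% of all genes counted in this cluster. Fos (2.25-fold, 1.78 to 2.83), Fosb (2.60-fold, 1.25 to 5.11), Klf4 (2.34-fold, 1.17 to 4.44), Ier5 (2.06-fold, 1.65 to 2.55), Btg2 (2.05-fold, 1.63 to 2.57) and Zfp36 (1.98-fold, 1.72 to 2.27) were the 6 higher. Ier2 (0.352 times, 0.223 to 0.532), Cebpb (0.517 times, 0.397 to 0.664), Dusp1 (0.625 times, 0.483 to 0.797), Klf2 (0.661 times, 0.475 to 0.900) and Cebpd (0.587 times, 0.260 to 1.16) were the 5 lower.

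In cluster 9 itself, with 1095 and 95 cells, a comparison added after the data were seen, 10 of 28 genes were higher and 2 lower, beside 31.8% and 17.3% of all genes counted. Fos was at 1332 and 462 CPM (2.88-fold, 2.27 to 3.71), Fosb at 249 and 72.6 (3.43-fold, 1.90 to 6.90), Zfp36 at 4341 and 1492 (2.91-fold, 2.55 to 3.33) and Btg2 at 1183 and 469 (2.52-fold, 1.99 to 3.24). Fos, Fosb, Zfp36, Btg2 and Klf4 were thus higher in both clusters and in the whole class. Klf4 had only 252 and 7 UMIs in cluster 9 (2.31-fold, 1.10 to 5.80). In both clusters the count of higher genes lay near the share of all genes, so no result about the 32 as a set is drawn. Egr1 was not, at 573 and 665 in cluster 18 and 814 and 839 in cluster 9, although the whole class gave 2.37-fold. Jun, Junb, Jund, Dusp6 and Rhob also lay within 1.5-fold in both clusters.

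**Figure D3:**
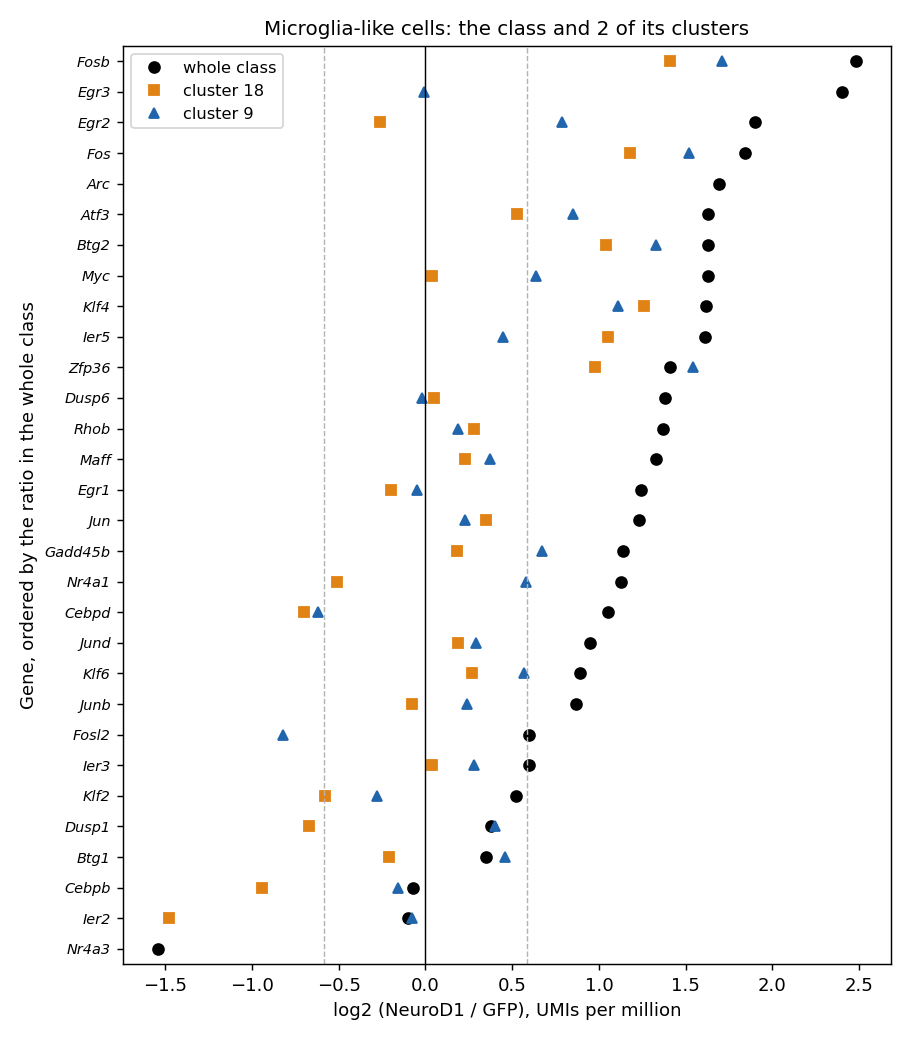
Log2 ratio of CPM, NeuroD1 over GFP library, for each gene counted in microglia-like cells: the whole class (black circles), cluster 18 (orange squares) and cluster 9 (blue triangles), the latter 2 where at least 20 UMIs were counted. Fosb, Fos, Btg2, Zfp36 and Klf4 stay past the upper dashed line of 1.5-fold in both clusters, and Egr1, Jun and Junb move inside it.

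Other genes that dissociation is known to switch on were also mostly higher in microglia-like cells. Of 20 such genes that are not among the 32, 12 were higher and 1 lower. All list counts in this paragraph stand beside 36.7% higher and 16.1% lower among all genes counted in this class. Nfkbia, the inhibitor of NF-kB, was at 7695 and 2741 CPM (2.81-fold, 2.75 to 2.87). The heat-shock gene Hspa1a was at 4456 and 2266 (1.97-fold, 1.92 to 2.02). Among 11 companion genes, known from microglia activated while they are isolated, 8 were higher and 2 lower, including Ccl3 (3429 and 1759), Ccl4 (8343 and 5056) and Tnf (508 and 170.4) on the higher side and Il1b (63.7 and 247) on the lower. The 21 immediate early genes listed here under published dissociation signatures had 16 higher and 0 lower, with a median log2 ratio of 1.14. The 8 listed here as linked to neuronal activity had 5 higher and 1 lower of 6 counted, with a median of 1.79. The division into these lists was made for this report, and a gene of one list may also respond to the other stimulus. Genes of both lists were mostly higher in the whole class, and the remaining members, Fosl2, Dusp6 and Myc, were higher too. In cluster 18 alone, 6 of the 26 members counted were higher and 5 lower. Median mitochondrial shares were 1.56% and 2.86% and median ribosomal protein shares 2.23% and 6.06%, and the part of handling, depth or these shares in the ratios was not tested. With the cells of each library split at their median depth, the sum was 38121 in the deeper and 33811 in the shallower NeuroD1 cells, and 16966 and 20851 in those of the GFP library, each library being split at its own median.

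Endothelial cell-like cells showed a mixed pattern, with some response genes higher and others lower by as much. Of 30 genes counted, 5 were higher and 10 lower, beside 23.1% and 12.4% of 11691 genes in this class. Ier3, which limits apoptosis, was at 719 and 182 CPM (3.96-fold, 3.47 to 4.53). Ier5 was at 178 and 43.9 (4.05-fold, 3.11 to 5.37), Gadd45b at 63.2 and 22.0 (2.88-fold, 1.97 to 4.36), Fos at 1195 and 573 (2.08-fold, 1.93 to 2.25) and Jun at 4939 and 3014 (1.64-fold, 1.59 to 1.69). Maff, in contrast, was at 105 and 437, 0.240 times the GFP level (0.214 to 0.269). Egr3 was at 0.25 times (0.147 to 0.427), Cebpb at 0.238 times (0.203 to 0.279) and Nr4a1 at 0.459 times (0.430 to 0.490). Dusp1 was at 1488 and 2743 (0.542 times, 0.522 to 0.564), Klf2 at 3003 and 5170 (0.581 times, 0.565 to 0.597), and Atf3 at 275 and 473 (0.581 times, 0.529 to 0.638).

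Klf2 was detected in 91.0% and 91.1% of endothelial cell-like cells at the full depths, medians of 2250 and 1046 UMIs, and in 66.1% (64.0 to 68.1) and 81.3% (78.8 to 83.7) after thinning. In astrocyte-like cells, which are not known for Klf2, the thinned shares were 0.980% and 2.45%. Clusters 2 and 5 held most of the class in the NeuroD1 library (1711 and 141 of 2044 cells) and cluster 3 in the GFP library (881 of 1029). In cluster 3 alone, with 192 and 881 cells, 4 of 27 genes were higher and 12 lower, beside 14.1% and 27.6% of all genes counted. In cluster 2, with 1711 and 140 cells, 4 of 28 were higher and 11 lower, beside 30.7% and 17.1%. Ier3 (3.39-fold and 2.66-fold), Ier5 (3.78-fold and 3.87-fold) and Gadd45b (3.41-fold, and 1.68-fold with an interval of 0.842 to 3.94) were higher in clusters 3 and 2 alike. Fos was higher in cluster 3 (1.92-fold) but within 1.5-fold in cluster 2 (1.22-fold), and Jun was within 1.5-fold in cluster 3 (1.10-fold) and higher in cluster 2 (1.72-fold). Maff, Nr4a1, Dusp1, Klf2, Klf6, Cebpb, Egr3 and Fosl2 were lower in both clusters. Fosl2 had 2 and 47 UMIs in cluster 3 and an interval of 0.329 to 1.18 in cluster 2. In the whole class it was within 1.5-fold (0.710 times). Egr3 had 0 and 24 UMIs in cluster 3 and 27 and 5 in cluster 2. Of 20 other dissociation genes 4 were higher and 4 lower in the whole class, beside 23.1% and 12.4% of all genes. The heat-shock genes Hspa1a (8402 and 3807) and Hspa1b (812 and 402) were among the higher, and Nfkbia (1913 and 3345) among the lower.

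Among the 8 classes Arc was highest in oligodendrocyte-like cells in both libraries. Arc encodes a postsynaptic protein whose RNA follows neuronal activity. It had 860 UMIs in this class in the NeuroD1 library (82.7 CPM, 77.2 to 88.4) and 158 in the GFP library (48.2, 40.9 to 56.3), 1.72-fold (1.45 to 2.05). Arc was found in 591 of 3143 cells (18.8%) and 136 of 2271 cells (5.99%), and after thinning to equal depth in 3.50% (2.89 to 4.20) and 2.51% (1.91 to 3.24). In astrocyte-like cells the unthinned shares were 0.327% and 0.138%, at median depths of 2470 and 1144 UMIs against 2935 and 1277 in oligodendrocyte-like cells, and in microglia-like cells 0.653% and 0.220%. No other of the 8 classes passed 8.80 CPM in the NeuroD1 library or 20.9 in the GFP library, both in smooth muscle cell-like cells on 6 UMIs each. Among the small classes, Arc stood at 96.3 and 25.3 in neuron-like cells, on 5 UMIs in each library, and at 47.8 on 12 UMIs in the 35 ependymal cell-like cells of the NeuroD1 library.

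Cells with an Arc UMI carried the oligodendrocyte markers at close to the level of the rest of their class. Summed oligodendrocyte markers stood at 78003 CPM in the 591 cells with Arc and 76036 in the 2552 without in the NeuroD1 library, and at 72870 and 71959 in the GFP library. Summed neuron markers were at 43.8 and 46.9 (NeuroD1) and at 84.6 and 56.9 (GFP). Fos was at 1438 CPM with Arc and 495 without, and Egr1 at 735 and 240.3, in the NeuroD1 library, and the order was the same in the GFP library, at 663 and 268 for Fos and 267 and 114 for Egr1. Cells with an Arc UMI were also deeper, with medians of 3402 and 2851 UMIs (NeuroD1) and 1418 and 1268 (GFP). The largest number of Arc UMIs in a single cell was 15 and 4.

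In the contrast between libraries, 7 of 27 genes were higher in oligodendrocyte-like cells and 11 lower, beside 12.9% and 15.2% of 12139 genes. Egr1 was at 353 and 124 CPM (2.84-fold, 2.56 to 3.16), Fos at 710.4 and 295 (2.41-fold, 2.25 to 2.57), Btg2 at 40.5 and 19.5 (2.07-fold, 1.59 to 2.74), Klf4 at 13.6 and 7.62 (1.78-fold, 1.16 to 2.84), Nr4a1 at 109 and 68.0 (1.61-fold, 1.39 to 1.87) and Jun at 683 and 428 (1.60-fold, 1.51 to 1.69). Egr2, a regulator of myelin genes in peripheral glia, was at 21.6 and 14.9 (1.45-fold, 1.06 to 2.02). Jund was level at 1473 and 1532, as was Rhob at 393 and 381. Cebpb was lower, at 5.86 and 44.2 (0.133 times, 0.0967 to 0.180), with Myc, Klf2, Cebpd, Junb and Zfp36 at 0.3, 0.383, 0.422, 0.551 and 0.546 times the GFP level. Of 20 other dissociation genes 4 were higher and 3 lower, and the heat-shock genes Dnajb1 (267 and 72.5) and Hspa1a (856 and 292) were higher. In cluster 7, the best shared, with 241 and 2046 cells, 6 of 25 genes were higher and 7 lower, beside 16.4% and 19.5% of all genes counted, and in cluster 6, a comparison added after the data were seen, 10 of 26 were higher and 7 lower, beside 26.0% and 17.0%. Klf4 had 0 and 25 UMIs in cluster 7, where the interval of its ratio, 0 to 1.12, includes 1. In cluster 6 it had 141 and 0. Atf3 was higher in cluster 7 (1.82-fold, 1.10 to 2.90) and within 1.5-fold in cluster 6. Fos, Egr1, Btg2, Nr4a1 and Arc were higher in both.

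Microglial RNA was also lower in the other glia of the NeuroD1 library. In oligodendrocyte-like cells the 10 microglial markers, all detected in both libraries, summed to 125 CPM and 1050, and in astrocyte-like cells to 172 and 1343. All 9 of the activation companions counted in oligodendrocytes and all 10 in astrocytes were lower, beside 15.2% and 24.9% of all genes counted. Ccl4 was at 21.3 and 201 CPM in the former and at 20.1 and 222 in the latter. None of the markers was at 0. The part of this RNA in the lower levels of Cebpb, Zfp36 or Junb was not tested. Subtracting the lowest class level of each gene cannot decide it. In both libraries Junb was itself lowest in astrocyte-like cells and Cebpb in oligodendrocyte-like cells. The counts after that subtraction are given in the last section.

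Astrocyte-like cells had the least immediate early RNA of the 8 classes in the GFP library. In the NeuroD1 library they were level with choroid plexus epithelium-like cells, at 1149.5 CPM (1130.3 to 1169) against 1163 (1144 to 1182). Between the libraries, their levels were mostly lower in the NeuroD1 one. Of 27 genes counted, 2 were higher and 15 lower, beside 10.5% and 24.9% of 13314 genes. Fos was higher, at 83.3 and 51.7 CPM (1.61-fold, 1.36 to 1.92), with a UMI in 10.8% and 5.12% of cells and, after thinning, in 3.51% (2.94 to 4.16) and 2.26% (1.68 to 2.98). Arc was the other, on 18 and 3 UMIs, with an interval of 0.439 to 7.96 that spans 1. Jund, Jun and Btg1 were level, at 318 and 325, 149 and 173, and 103 and 92.0. Cebpb was lower at 0.167 times the GFP level (0.131 to 0.212), Zfp36 at 0.196 times (0.166 to 0.232), Atf3 at 0.222 times (0.151 to 0.325), Junb at 0.290 times (0.258 to 0.324) and Klf2 at 0.302 times (0.238 to 0.383).

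Among the 27 genes counted, Rhob and Cebpd were the 2 that reached 25% of their highest class in astrocyte-like cells in at least 1 library. Rhob was at 105 and 295 CPM (0.356 times, 0.326 to 0.389), and Cebpd at 46.9 and 175 (0.268 times, 0.238 to 0.303). In the GFP library Cebpd stood at 404% of its own microglial level and Rhob at 64.0%. Of the other lower genes, Atf3 was at 0.198% of the microglial level and 2.77%, and Junb at 0.721% and 4.54%. Cebpb was at 0.898% and 5.12%, and Zfp36 at 0.501% and 6.76%. Fosl2 (4.84% and 21.9%), Klf6 (5.35% and 15.8%), Klf2 (2.46% and 11.7%) and Dusp1 (3.65% and 8.57%) stood above these. The microglial genes C1qa, at 0.185% and 3.81%, and Ccl4, at 0.241% and 4.38%, lay near Atf3, Junb, Cebpb and Zfp36. Another microglial marker, Sall1, stood at 9.88% and 37.4%. In cluster 11, the best shared, with 901 and 686 cells and close median depths of 731 and 749 UMIs, 1 of 20 genes was higher and 9 lower, beside 10.0% and 25.1% of all genes counted, with Rhob (128 and 249.6) and Cebpd (37.4 and 168) among the lower and Fos (114 and 49.2) the higher. Atf3 (0.741 times, 0.323 to 1.71) and Klf2 (0.770 times, 0.433 to 1.38) lay within 1.5-fold there. In cluster 17, with 241 and 1336 cells, 0 of 21 were higher and 13 lower, beside 12.6% and 21.9%. Fos was within 1.5-fold in it (1.08-fold, 0.691 to 1.63), and Atf3 (0.501 times, 0.155 to 1.26) and Klf2 (0.367 times, 0.154 to 0.753) were lower.

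**Figure D4:**
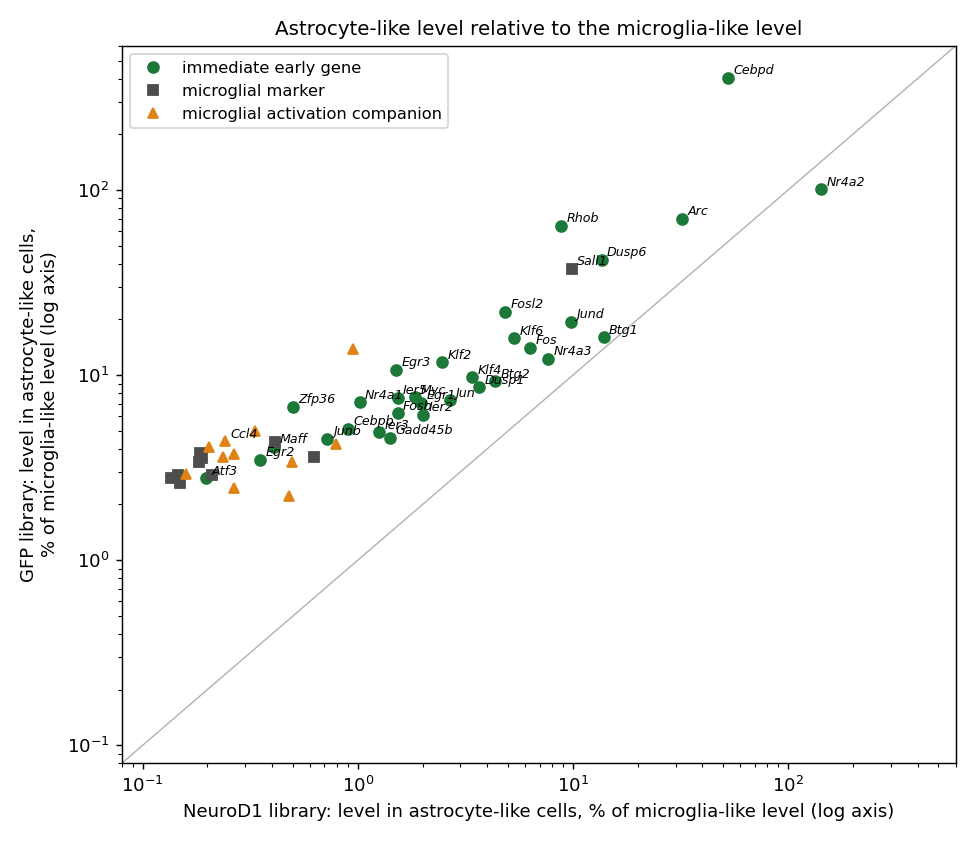
Level of each gene in astrocyte-like cells as a percent of its level in microglia-like cells of the same library, NeuroD1 (horizontal) against GFP (vertical), both axes logarithmic, for genes with a UMI in both. Atf3 and Junb lie beside the microglial markers (squares) and activation companions (triangles), while Cebpd, Rhob, Jund, Btg1 and Dusp6 lie to the right of most of them. Egr2 (3 and 2 UMIs in astrocyte-like cells), Maff (6 and 6) and Arc (18 and 3) rest on few UMIs. So does Nr4a2, with 3 and 13 UMIs in microglia-like cells.

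In the other 4 classes the direction differed, mostly higher in macrophages and lower in epithelium. In border macrophage- or monocyte-like cells (165 and 159 cells) 14 of 28 genes were higher and 2 lower, beside 21.0% and 17.7% of all genes. Btg2 was at 1373 and 301 CPM (4.57-fold, 3.51 to 6.05), Fosb at 458 and 123 (3.72-fold, 2.44 to 5.88) and Fos at 1580 and 562 (2.81-fold, 2.30 to 3.46), and Klf2 was at 932 and 1444 (0.646 times, 0.554 to 0.753). In smooth muscle cell-like cells (242 and 232 cells) 7 of 28 were higher and 4 lower, beside 20.7% and 14.7%. Klf4 was at 305 and 66.1 (4.62-fold, 2.88 to 7.83), Fosb at 562 and 163 (3.44-fold, 2.53 to 4.76) and Btg2 at 2847 and 963 (2.96-fold, 2.61 to 3.36), whereas Egr1 was at 788 and 1321 (0.596 times, 0.522 to 0.682).

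Pericyte-like cells (561 and 262) had 7 higher and 8 lower of 22, beside 23.4% and 16.0%. Ier3 had 185 and 3 UMIs, a ratio of 16 (5.40 to 78.4), and Jun was at 2763 and 1228 (2.25-fold, 1.95 to 2.61). Cebpb (0.212 times, 0.165 to 0.273) and Nr4a1 (0.213 times, 0.150 to 0.301) were lower. Choroid plexus epithelium-like cells (878 and 254) had 0 higher and 22 lower of 26, beside 11.8% and 31.4%, and none of these genes reached 25% of its highest class there. Summed microglial markers in that class were 101 and 1057 CPM, and their part in the 22 lower genes was not tested. Fos itself was level in the choroid plexus, at 218 and 249.9, as was Dusp1 at 267 and 247.

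The neuronal genes Npas4 and Arc had their clearest signals in different cells. Npas4, a transcription factor of neurons that responds to calcium, had 0 UMIs and 1 UMI in all 8 classes together, which leaves no level to compare. It was present in a cluster left unnamed because markers of mature and immature neurons were both found in it. Led by Reln, Ndnf and Lhx1, it held 166 and 74 cells. This cluster was chosen after its values were seen. Npas4 had 25 UMIs there in the NeuroD1 library (62.6 CPM, 40.5 to 92.4), in 15 cells, and 2 in the GFP library (23.3, 2.82 to 84.1). Arc had 3 UMIs and 1 UMI.

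In the Reln-led cluster Fos was at 2291 CPM and 163, on 915 and 14 UMIs, a ratio of 14.1 (8.34 to 25.8). It was found in 64.5% and 10.8% of cells, at median depths of 2216 and 1116 UMIs. Fosb was at 396 and 58.2 (6.80-fold, 2.85 to 21.2), Ier2 at 561 and 139.7 (4.02-fold, 2.25 to 7.89), Egr1 at 1182 and 303 (3.91-fold, 2.63 to 6.04), Junb at 1275 and 407 (3.13-fold, 2.22 to 4.54) and Dusp1 at 1102 and 396 (2.78-fold, 1.96 to 4.07). Of 19 genes counted 13 were higher and 1, Nr4a1 on 18 and 6 UMIs, was lower, beside 26.3% and 17.3% of 4909 genes counted in this cluster. Among the 13, the intervals of Klf2, Klf6, Zfp36 and Npas4, each on 2 or 3 UMIs in the GFP library, span 1. That of Nr4a1 (0.245 to 1.99) does too. Jund was level at 1653 and 1525. The sum over the 32 genes was 11552 and 4609.

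**Figure D5:**
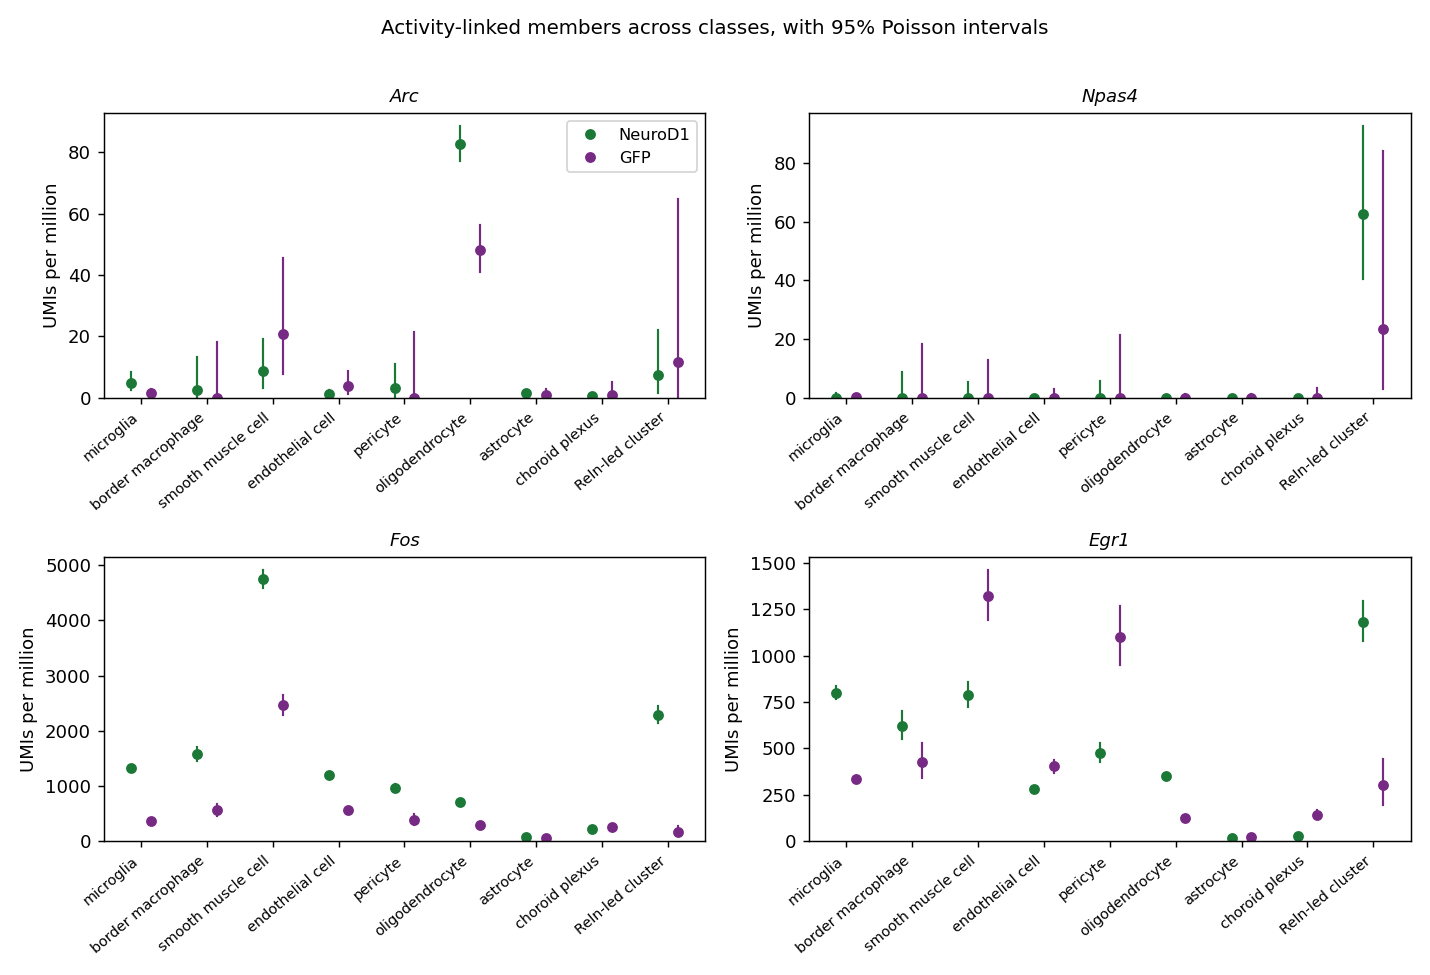
Level of Arc, Npas4, Fos and Egr1 in CPM (linear axes from 0) in 8 classes and the Reln-led cluster, NeuroD1 (green) and GFP (purple), with 95% Poisson intervals. Arc stands out in oligodendrocyte-like cells, Npas4 in the Reln-led cluster, and Fos in smooth muscle cell-like cells and, in the NeuroD1 library, the Reln-led cluster.

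Few mature neurons were recovered, 7 and 121 neuron-like cells, and these were low in response genes. In the 121 cells of the GFP library the 32 genes summed to 2492 CPM, with Fos at 35.4, Egr1 at 121, Arc at 25.3 on 5 UMIs and Npas4 at 0. Those cells had a median mitochondrial share of 11.7%, against 2.86% in microglia-like cells of that library. Late response genes of neurons, the targets that activity-dependent factors switch on next, were all detected in them, 14 of 14, at 1714 CPM. In immature neuron-like cells (100 and 31 cells) the 32 genes summed to 5082 and 5370.1, with Fos at 788 and 87.0 and Egr1 at 385 and 565. In other classes the late genes had no common direction. In microglia-like cells 3 of 6 counted were higher and 1 lower, beside 36.7% and 16.1% of all genes. Rgs2, a regulator of G-protein signals, was at 539 and 129 there (4.18-fold, 3.82 to 4.59). In oligodendrocyte-like cells 1 of 7 was higher and 0 lower, beside 12.9% and 15.2%. Bdnf, a late gene that encodes a neurotrophin, had 0 UMIs and 1 UMI in oligodendrocyte-like cells, beside the 860 and 158 of Arc.

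Most of the genes were found in a larger share of cells with a Fos UMI than of cells without one, with every cell thinned to 500 UMIs. In oligodendrocyte-like cells this held for 18 of 20 members found in at least 20 cells of the NeuroD1 library, beside 45.1% of all genes so found, and for 16 of 18 in the other, beside 42.3%. Egr1 was in 38.7% of those with Fos and 4.71% of those without in the first, and in 38.3% and 1.91% in the second, and Fosb in 11.3% and 0.919%, and in 12.5% and 0.0930%. In endothelial cell-like cells it held for 22 of 25 and 20 of 24 members, beside 47.3% and 45.7% of all genes, with Nr4a1 in 29.9% and 5.57% of NeuroD1 cells and 51.1% and 29.9% of GFP cells, and in microglia-like cells for 21 of 25 and 26 of 27, beside 46.8% and 48.3%. In astrocyte-like cells the counts were 13 of 16 and 9 of 18, beside 48.1% and 47.1%. These are descriptions without a test, and cells of a class differ in cluster.

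Genes upstream of the response were listed as well. Of 17 listed kinases and factors, 15 were in the gene lists. Of those counted in microglia-like cells, 7 of 14 were higher and 0 lower, beside 36.7% and 16.1% of all genes. In astrocyte-like cells 0 of 15 were higher and 5 lower, beside 10.5% and 24.9%. In oligodendrocyte-like cells 1 of 15 was higher and 1 lower, beside 12.9% and 15.2%. Endothelial cell-like cells had 3 of 15 higher and 2 lower, beside 23.1% and 12.4%. No result about the list is drawn from counts this small. Overlapping transcription bears on a few members: 8 of the 32 overlap another gene of the files in GENCODE M21, among them Junb with Prdx2, Cebpb with Tmem189, Cebpd with Spidr and Dusp1 with Ergic1, each on the opposite strand. The sources used here do not say whether counting used strand, so these counts may include reads of the neighbour.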

How the data were processed

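Single cells of 2 libraries were read from the deposited matrices, whose values are UMI counts per gene and cell from the authors' processing. The submitters' processing notes name FastQC, fastp, cutadapt, STAR and featureCounts and build mm39, without versions or roles. No source used here says whether counting used strand. Every deposited barcode had at least 500 UMIs. Cells with under 200 genes or over 20% mitochondrial UMIs were removed (131 NeuroD1 and 104 GFP), and then called doublets (487, 3.67%, and 553, 4.75%). Cells were scaled to 10000 UMIs, clustered with scanpy 1.11.5 (3000 variable genes, 30 components, 15 neighbours, Leiden resolution 1) under Python 3.11.15, and each cluster was named where at least 3 markers of a class supported it. Levels are UMIs of a gene per 1000000 UMIs of a class (CPM), summed over its cells. Ratios of genes with at least 20 UMIs in both libraries together were called at 1.5-fold, with exact 95% intervals from scipy 1.17.1, tested on simulated data. For the log2 ratios, 0.5 UMIs were added to each count. Thinning drew 500 UMIs per cell. With 1 library per group there is no test. Each of the 32 genes is named with its highest class. Those given in full are, per class, up to 6 higher and 6 lower among genes at 25% or more of their highest class, and further genes were added after their values were seen. The 32 genes and all lists were chosen with earlier results of these data known. Alternatives covered doublets, filters, resolution, depth, scaling, cell weights, UMI minimum, fold, shared clusters and free RNA. Of 17 listed upstream genes, Mrtfa and Mrtfb matched no symbol. Ier2, Egr3, Arc, Egr1, Myc and Cebpd had no entry in the promoter table.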

Additional observations from a re-analysis of the deposited data

Results flagged for a closer look

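With the same contrast between libraries, 14 of the 32 genes were at least 1.5-fold higher in 1 of the 4 classes compared in full and at least 1.5-fold lower in another, and 5 of those given in full above are described here. None of these differences was tested, since each group is 1 library. The share of all genes with such opposite calls was not computed, so the count of 14 cannot be set against it. Over all genes counted, 36.7% were higher in microglia-like cells. In astrocyte-like cells 24.9% were lower, and in endothelial cell-like cells 12.4%. On the log2 scale of NeuroD1 over GFP, Egr3 stood at 2.40 in microglia-like cells and -2.00 in endothelial cell-like cells. Atf3 stood at 1.63 and -0.78, Nr4a1 at 1.13 and -1.12, and Maff at 1.33 and -2.06 in the same classes. Rhob stood at 1.37 in microglia-like cells and -1.49 in astrocyte-like cells. The remaining 9 were Cebpd, Egr1, Fosl2, Ier3, Ier5, Junb, Klf6, Myc and Zfp36. The microglial ratios of the 5 genes were smaller within the shared clusters 18 and 9: 1.44-fold and 1.80-fold for Atf3, 0.688 times and 1.5-fold for Nr4a1, 1.03-fold and 1.34-fold for Maff, and 1.21-fold and 1.14-fold for Rhob. Egr3 had 0 and 9 UMIs in cluster 18 and a ratio of 1.09 (0.449 to 3.44) in cluster 9.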

How the results depend on the processing

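No paired analysis was possible because each group is 1 library. Counts below are of genes at least 1.5-fold apart. In the single best shared cluster of each class, microglia-like cells had 6 higher (24 in the whole class) and 5 lower (1), astrocyte-like cells 1 higher (2) and 9 lower (15), and oligodendrocyte-like cells 7 lower (11). In the next shared cluster, chosen after seeing the data, these were 10 and 2, 0 higher, and 7 lower. With the lowest class level of each gene subtracted as free RNA, astrocyte-like cells had 6 higher and 9 lower, and oligodendrocyte-like cells 13 higher (7) and 4 lower. Some genes were themselves lowest in the class compared, as Junb in astrocyte-like and Cebpb in oligodendrocyte-like cells. These counts therefore do not show the part of free RNA. At 2-fold, astrocyte-like cells had 0 higher, oligodendrocyte-like cells 3 higher and 5 lower, and endothelial cell-like cells 6 lower (10). Thinning left 5 lower in oligodendrocyte-like cells. Astrocyte-like cells had 1 higher with doublets kept, with a minimum of 50 UMIs, and with cells of at least 1000 UMIs only. Microglia-like cells had 2 lower with a minimum of 5 UMIs. Over all members with at least 20 UMIs there, the sign of the log2 ratio changed for 8 microglial genes in the shared cluster and 6 in the next, for 4 and 1 astrocytic, 5 and 1 oligodendrocytic, and 4 and 5 endothelial. Beyond the genes ranked per class, those of the microglial shared cluster were Junb (-0.08), Egr1 (-0.20), Btg1, Nr4a1, Dusp1, Klf2 and Cebpd. Those of the next microglial cluster were Fosl2 (-0.82), Egr1 (-0.05), Dusp6 (-0.02), Klf2 and Cebpd. In the oligodendrocytic shared cluster they included Klf4 (-2.86, on 0 and 25 UMIs). Of the genes ranked per class, log2 ratios that changed sign in microglia-like cells were Egr3 (-1.62 in the shared cluster, on 0 and 9 UMIs, and -0.01 in the next), Egr2 (-0.26 in the shared cluster), Cebpb (0.02 with doublets kept, 0.01 at Leiden resolution 0.5) and Ier2 (0.00 with cells of at least 1000 UMIs). So did Jund in oligodendrocyte-like cells (0.05 after subtraction), and, in endothelial cell-like cells, Junb (-0.16 in the next cluster) and Zfp36 (-0.36 in the shared cluster, -0.09 in the next). The causes were not tested. Of 330 values of named genes and medians under the alternatives, 235 stayed within the counting interval or direction of the main value, 85 moved and 10 changed sign. Group, library, animals and sex-linked RNA cannot be told apart in these 2 libraries, and depth limits the GFP library more.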
